A study of Mus musculus with 2 samples.

Results

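The genes described here encode the machinery that copies DNA in S phase. They are 39 genes of 31053 counted, taken by symbol from a fixed list, and all 39 symbols were found once in the deposited gene table. Both libraries are single-cell 3′ RNA libraries of hematopoietic stem cells (HSCs) as labelled, from bone marrow of wild-type C57BL/6J mice aged 6-8 weeks. One library, called Listeria below, came from mice 6 weeks after a challenge with the bacterium Listeria monocytogenes, and the other, called naive, from untreated mice. The number of mice behind a library and the sort that gave the HSCs are not given in the sources used here. Each group is 1 library, so no difference between the groups has a replicate check. Every interval below covers only the counting of UMIs or of cells within a library.

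Each value is a count of unique molecular identifiers (UMIs), which stand for single captured RNA molecules, so that counts were not scaled by gene length. Cells were barcodes with at least 2500 UMIs, at least 500 genes and at most 10% mitochondrial UMIs. This left 4839 Listeria cells with a median of 7239 UMIs, and 6375 naive cells with a median of 6972 UMIs. Levels are given as counts per 1000000 UMIs (CPM) over the summed UMIs of a group of cells. Below, a gene counts as higher or lower where its log2 ratio lies beyond 0.32 in that direction, which is called the limit. Both libraries listed the same barcodes, and 14 kept barcodes occurred in both. The deposited file names call the Listeria library a knockout, while the labels give wild type for both.

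Before S phase, Cdc6 and Cdt1 help load the Mcm2 to Mcm7 ring onto origins, and Cdc45 and the GINS complex, with Mcm10, turn that ring into an active helicase. Polymerase alpha with primase (Pola1, Prim1) starts each new strand, the replication factor C loader (Rfc1 to Rfc5) places the Pcna clamp, and Fen1 and Lig1 process and join the fragments of the lagging strand. Ribonucleotide reductase (Rrm1, Rrm2), thymidylate synthase (Tyms) and dUTPase (Dut) supply the nucleotides, while Chaf1a, Chaf1b and Uhrf1 restore chromatin and DNA methylation behind the fork. In marrow, most HSCs are quiescent, whereas early B-lineage cells pass through rapid rounds of division.

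Many genes of this set are known targets of E2F factors, which switch on transcription at the entry to S phase. RefSeq promoter windows on GRCm38.p6, from 250 bases before to 50 after a start, were on hand for 31 of the 39 genes. At least 1 of the sequences TTTCGCGC, TTTGGCGC and TTTCCCGC, on either strand, was in a window of 13 of the 31 genes (41.9%). Of the 6504 genes with a window that reached 10 CPM in one or both libraries, 4.72% had one, and of 38 genes of a mitosis list, 2.63%. A CCAAT box, the sequence bound by NF-Y, was in 64.5% of the 31 genes, in 76.3% of the mitosis list and in 42.9% of the 6504. A match is a description of the letters and not a measured binding site. The windows of 4 genes that the results below turn on are printed 5′ to 3′ along the gene's strand, with matches to the 3 sequences in capitals, where overlapping matches run together. Mcm5 and Mcm6 encode helicase subunits that were higher in Listeria HSC-like cells. Pclaf, a Pcna partner, and Rrm2, the regulated subunit of ribonucleotide reductase, had the widest range between cell types.
Mcm5, chr8:75109259-75109558, plus strand: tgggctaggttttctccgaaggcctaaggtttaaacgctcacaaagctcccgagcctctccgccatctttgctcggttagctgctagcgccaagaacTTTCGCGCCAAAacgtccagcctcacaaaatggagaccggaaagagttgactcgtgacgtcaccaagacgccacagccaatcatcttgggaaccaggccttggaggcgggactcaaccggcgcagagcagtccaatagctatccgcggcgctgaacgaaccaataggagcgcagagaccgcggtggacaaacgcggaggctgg
Mcm6, chr1:128359656-128359955, minus strand: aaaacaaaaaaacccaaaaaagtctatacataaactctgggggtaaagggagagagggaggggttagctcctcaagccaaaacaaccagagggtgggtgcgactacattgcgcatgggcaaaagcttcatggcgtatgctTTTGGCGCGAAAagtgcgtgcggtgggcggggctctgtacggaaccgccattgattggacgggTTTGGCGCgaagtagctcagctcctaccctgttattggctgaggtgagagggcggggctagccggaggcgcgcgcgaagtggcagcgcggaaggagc
Pclaf, chr9:65890073-65890372, plus strand: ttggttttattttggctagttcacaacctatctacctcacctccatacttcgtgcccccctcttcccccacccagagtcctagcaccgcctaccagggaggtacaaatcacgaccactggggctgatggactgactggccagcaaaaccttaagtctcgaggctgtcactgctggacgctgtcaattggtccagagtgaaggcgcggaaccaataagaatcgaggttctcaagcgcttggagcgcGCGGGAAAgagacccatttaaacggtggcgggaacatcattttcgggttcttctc
Rrm2, chr12:24708004-24708303, plus strand: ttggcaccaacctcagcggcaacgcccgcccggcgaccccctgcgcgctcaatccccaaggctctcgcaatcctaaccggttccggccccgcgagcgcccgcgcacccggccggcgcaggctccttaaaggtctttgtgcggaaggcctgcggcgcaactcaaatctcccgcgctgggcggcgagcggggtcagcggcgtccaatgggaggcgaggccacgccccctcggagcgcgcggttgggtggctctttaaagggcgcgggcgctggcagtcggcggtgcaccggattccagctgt
The Mcm6 window held 3 matches and the Mcm5 window held 2, overlapping in a single run. The Pclaf window held 1 match of the TTTCCCGC kind on the opposite strand, and the Rrm2 window held none of the 3 sequences, though it held a CCAAT box.

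Cell types were gated on marker genes, none of which is among the 39. HSC-like cells, led by Meg3, Mecom, Hlf and Procr, were 2147 of the Listeria cells (44.4%) and 2274 of the naive cells (35.7%). B-lineage-like cells, led by Vpreb3, Vpreb1 and Ebf1, were 394 Listeria cells (8.14%) and 1391 naive cells (21.8%). A gate on Cd34, Emb and related markers held 427 Listeria and 558 naive cells but was led by genes of other types such as H2-Aa and Cst3, and a gate on Dntt, Flt3 and related genes was led by Ccr9 and Trbc1. Both are called by their markers and given no cell type name. Cells positive for more than 1 lineage, 75 in the Listeria and 145 in the naive library, were kept out of the single gates. They stayed in values over all cells, with 3.85% of the set's UMIs in the Listeria and 4.49% in the naive library. A further 936 Listeria and 745 naive cells met no gate.

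The replication genes were highest in B-lineage-like cells and low in HSC-like cells of both libraries. In the Listeria library the 39 genes summed to 8389 CPM in B-lineage-like cells and to 1343 CPM in HSC-like cells. In the naive library they summed to 7401 CPM in B-lineage-like and 1146 CPM in HSC-like cells. Between these ends lay erythroid-like cells, with 3148 CPM in the Listeria and 3911 CPM in the naive library, from 54 Listeria and 36 naive cells. Megakaryocyte-lineage-like cells had 3098 CPM in the Listeria and 2912 CPM in the naive library, and myeloid-progenitor-like cells 2146 CPM in the Listeria and 1828 CPM in the naive library. The Cd34 and Emb gate had 1917 CPM in the Listeria and 1524 CPM in the naive library. T/NK-like cells had 1253 CPM in the Listeria and 1574 CPM in the naive library, and the Dntt and Flt3 gate 1273 CPM in the Listeria and 1264 CPM in the naive library. In the Listeria library both lay slightly below HSC-like cells. In the naive library both lay above them, with T/NK-like cells near the Cd34 and Emb gate. Neutrophil-like cells had 496 CPM in the Listeria and 676 CPM in the naive library. Plasma-like cells had 621 CPM in the Listeria and 268 CPM in the naive library, and a single cell held 53.2% of the Listeria value.

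**Figure D1:**
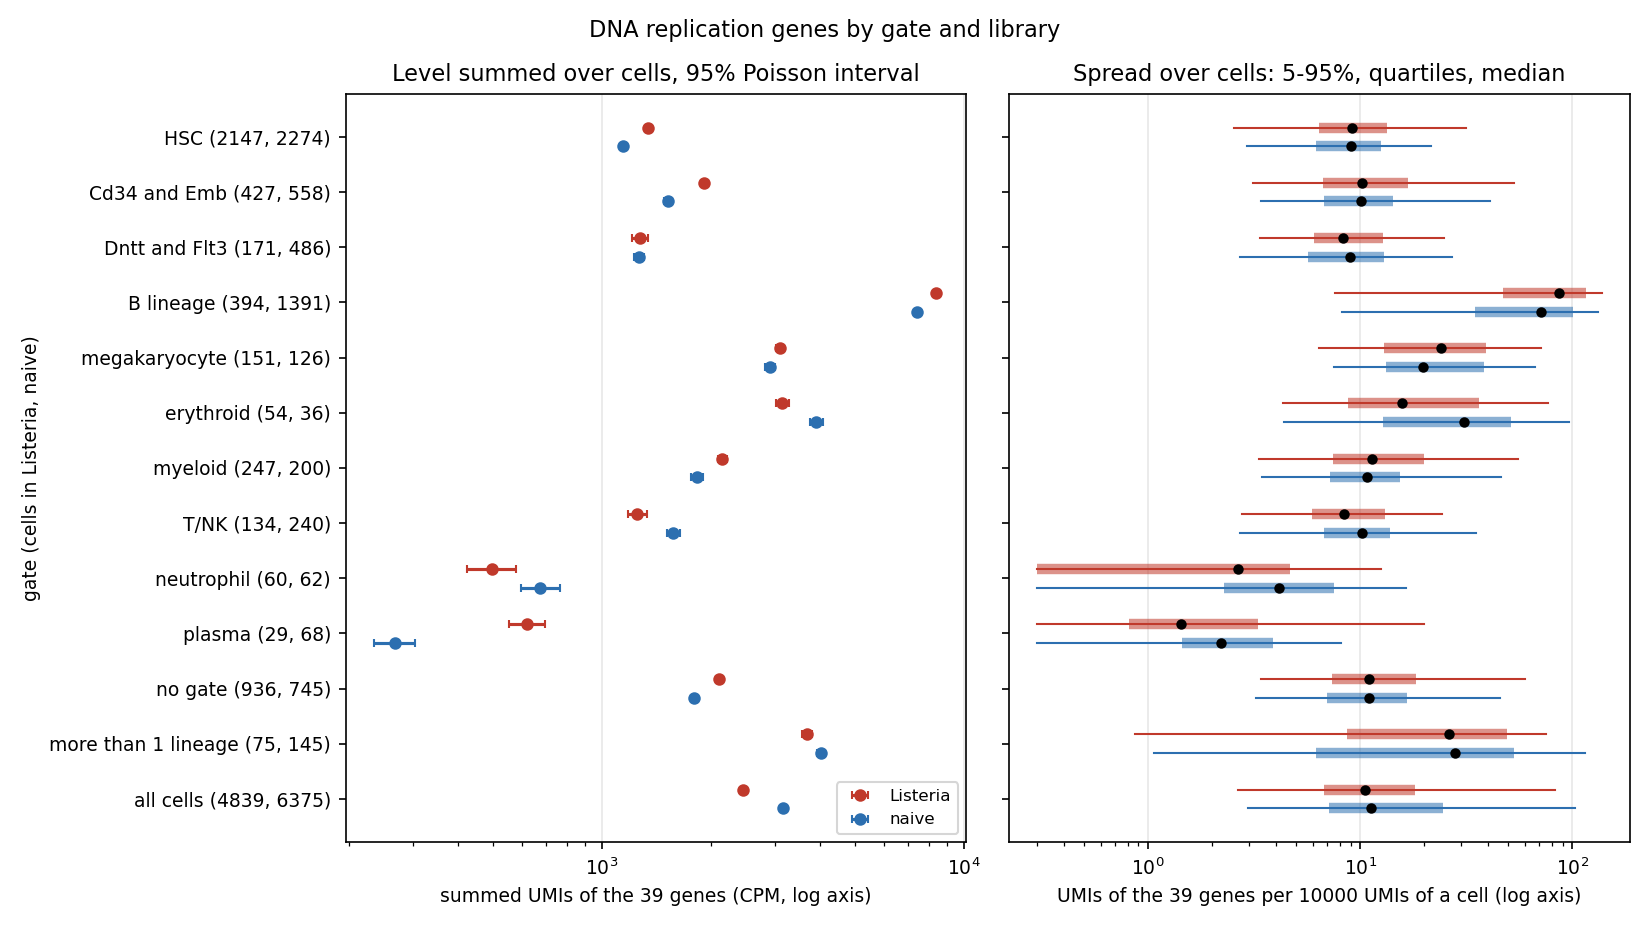
The left panel gives the summed level of the 39 genes in CPM on a log axis, by gate, with 95% Poisson intervals, and the right panel the UMIs of the 39 genes per 10000 UMIs of each cell on a log axis, as the 5th to 95th percentiles (lines), quartiles (bars) and median (black points), with zeros drawn at the left edge. B-lineage-like cells stood highest in both libraries, at 8389 CPM in Listeria and 7401 CPM in naive, and over all cells the Listeria value of 2455 CPM lay below the naive value of 3164 CPM.

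Per cell, the set was far more abundant in the B lineage than in HSC-like cells. In B-lineage-like cells the median was 86.4 UMIs of the set per 10000 in the Listeria and 71.0 in the naive library. In HSC-like cells it was 9.19 in the Listeria and 9.04 in the naive library, so that the typical HSC-like cell differed little between libraries. The libraries parted in the upper tail of the HSC-like cells, where the 95th percentile was 31.5 in the Listeria and 21.5 in the naive library. Cells with 50 to 100 UMIs of the set per 10000 also had more RNA counted, with a median of 11634.5 UMIs in the Listeria and 10765 in the naive library, against 6728 in Listeria and 6512 in naive cells at 5 to 10 per 10000.

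To compare cells at equal depth, each was thinned to 2500 UMIs. A cell with at least 8 UMIs of the set was called member-high, and at least 5 UMIs was the other limit used. At the HSC-like medians, counting alone puts 8.34% of Listeria and 7.90% of naive cells at 5 or more, but 0.257% of Listeria and 0.232% of naive cells at 8 or more. Member-high cells were 138 of the HSC-like cells in the Listeria library (6.43%, Clopper-Pearson interval 5.43 to 7.55%) and 72 in the naive library (3.17%, 2.49 to 3.97%). At 5 or more UMIs the shares were 16.3% in the Listeria and 12.8% in the naive library. Unthinned, 68.7% of Listeria and 67.1% of naive HSC-like cells reached 5 UMIs, a share set mostly by depth. Of B-lineage-like cells, 81.0% in the Listeria and 76.3% in the naive library were member-high. The member-high share was 36.4% in Listeria and 34.9% in naive megakaryocyte-lineage-like cells. It was 19.4% in Listeria and 10.5% in naive myeloid-progenitor-like cells, and 11.9% in the Listeria and 7.71% in the naive Cd34 and Emb gate. Among neutrophil-like cells it was 0 of 60 in the Listeria library, with a Clopper-Pearson interval up to 5.96%. In the naive library it was 0 of 62, with an interval up to 5.78%. Their median depths were 4650.5 UMIs in the Listeria and 4950 UMIs in the naive library. This gate is no clean negative, since mitosis genes summed there to 1004.5 CPM in the Listeria and 2163 CPM in the naive library.

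Across all cells pooled, each of the 39 genes was higher where the other genes of the set were high, but not equally. Each gene was compared between cells with at least 8 and cells with at most 3 thinned UMIs of the other 38 genes. B-lineage-like cells were 319 of the 804 member-high cells in the Listeria library and 1062 of 1460 in the naive library. The same difference was not computed for all genes or within a cell type. The log2 difference went from 1.252 in the Listeria and 0.99 in the naive library for Chaf1b, a subunit of chromatin assembly factor 1, to 7.49 in the Listeria and 6.33 in the naive library for Pclaf. The loader subunits Rfc1 and Rfc2 were next to Chaf1b at the low end. Rfc1 differed by 1.44 in the Listeria and 1.26 in the naive library, and Rfc2 by 1.70 in the Listeria and 1.33 in the naive library.

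A like order was seen between B-lineage-like and HSC-like cells, a contrast that the pooled comparison already held in part. Among all genes that reached 10 CPM in one of the compared cell types, 13.8% were over 2-fold higher in B-lineage-like than in HSC-like cells in the Listeria and 15.6% in the naive library. Of the 39 replication genes 37 passed that fold in the Listeria and 36 in the naive library, with a median log2 difference of 2.61 in the Listeria and 2.67 in the naive library. Pclaf had 738 CPM in B-lineage-like and 7.44 CPM in HSC-like cells of the Listeria library. In the naive library Pclaf had 667 CPM in B-lineage-like and 8.45 CPM in HSC-like cells. Rrm2 had 292 CPM in B-lineage-like and 4.84 CPM in HSC-like cells in the Listeria library, and 226 CPM in B-lineage-like and 4.41 CPM in HSC-like cells of the naive library. Both genes were thus under 10 CPM in HSC-like cells and plentiful in B-lineage-like cells.

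At the other end, Chaf1b had 69.1 CPM in B-lineage-like and 46.4 CPM in HSC-like cells in the Listeria library, and 67.1 CPM in B-lineage-like and 47.0 CPM in HSC-like cells of the naive library. Rfc2 had 143 CPM in B-lineage-like and 85.1 CPM in HSC-like cells in the Listeria library, and 131 CPM in B-lineage-like and 81.0 CPM in HSC-like cells of the naive library. These genes were counted in most cell types whether or not the rest of the set was high. In megakaryocyte-lineage-like cells 31 of 38 genes tested were over 2-fold above HSC-like cells in the Listeria library and 29 of 37 in the naive library. The share over all genes was 6.95% in the Listeria and 10.1% in the naive library. In the Cd34 and Emb gate 4 of 35 passed in the Listeria library and 3 of 31 in the naive library, against 1.32% of all genes in the Listeria and 2.42% in the naive library.

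**Figure D2:**
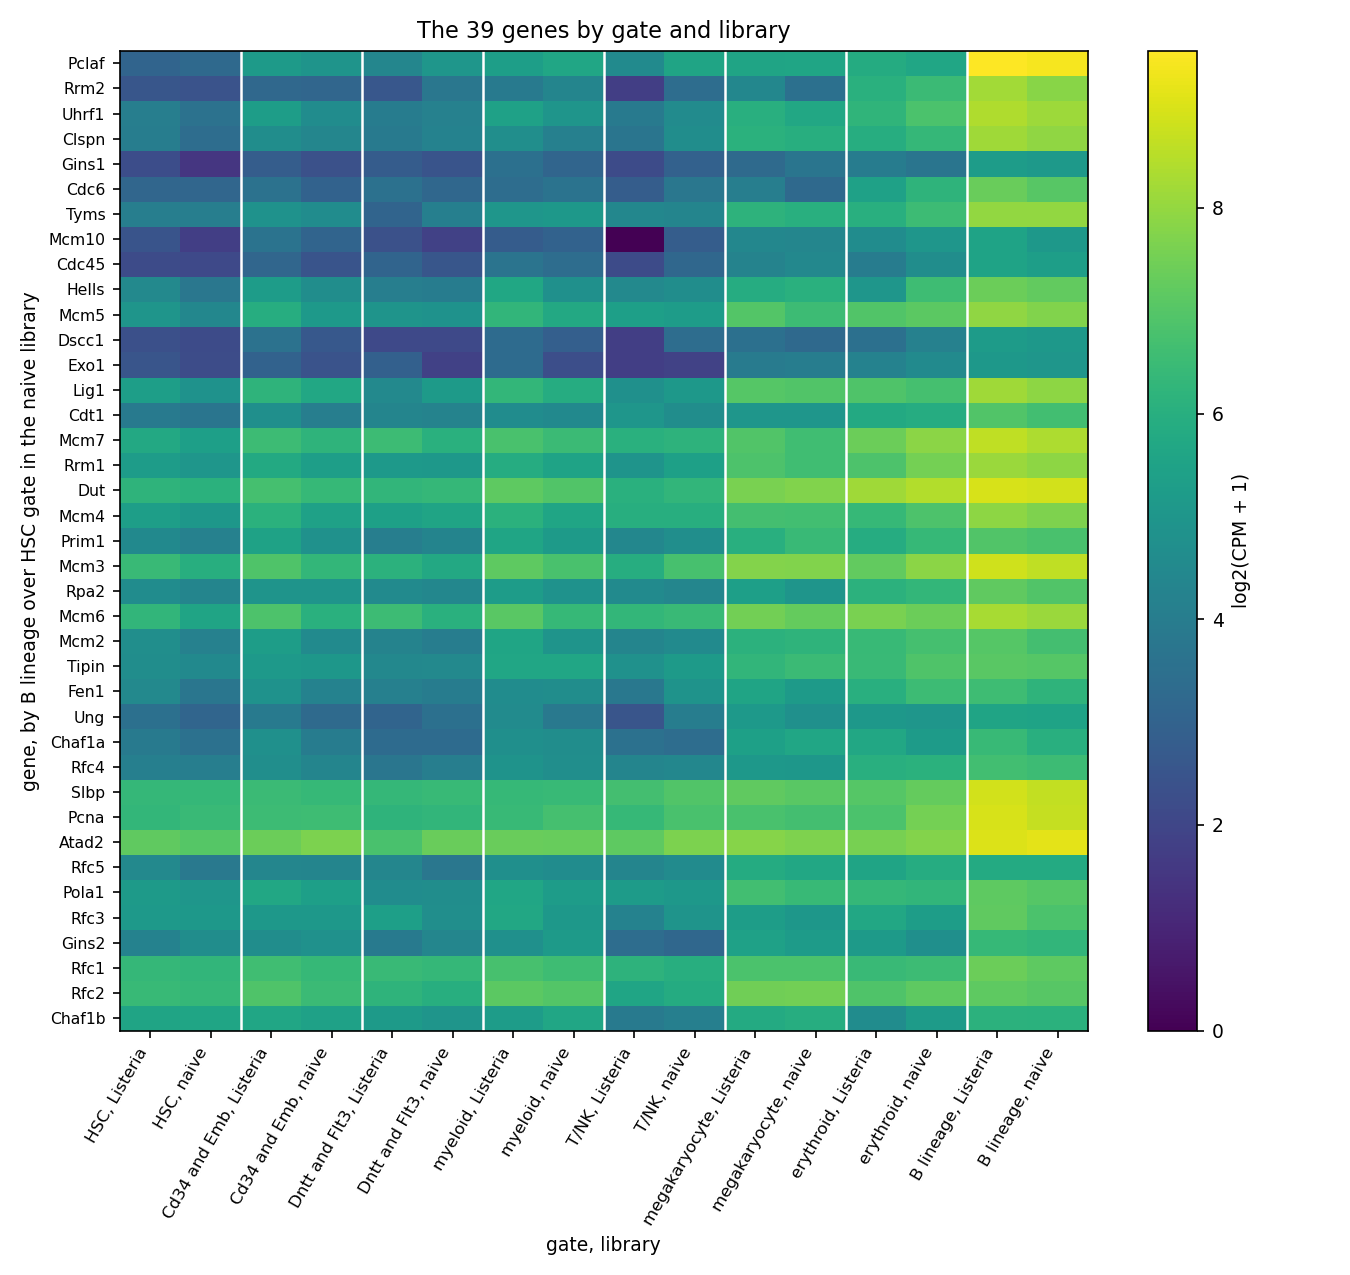
Rows are the 39 genes, ordered by the B-lineage over HSC gate difference in the naive library, columns are gates with the Listeria library left of the naive one, and colour is log2(CPM + 1). Pclaf and Rrm2 at the top reach 738 and 292 CPM in the B-lineage gate of the Listeria library, while Rfc1, Rfc2 and Chaf1b at the bottom differ least between gates.

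Within B-lineage-like cells the genes were highest at different levels of mitosis genes. Cells were split by UMIs of 44 mitosis genes after thinning, into 0 to 4, 5 to 14 and 15 or more. The lowest group held 67 Listeria and 360 naive cells, the middle 115 Listeria and 379 naive cells, and the highest 212 Listeria and 652 naive cells. Between the lowest and the middle group 38 of the 39 genes were higher past the limit in each library, against 34.1% of all genes in the Listeria and 24.8% in the naive library. Between the middle and the highest group the set split. In the Listeria library 14 genes (35.9%) were higher past the limit and 7 (17.9%) lower, against 29.8% and 30.6% of all genes. In the naive library 7 (17.9%) were higher and 12 (30.8%) lower, against 21.6% and 21.7%. These shares lie near the background, so the split is given as a description of single genes.

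Ung, which removes uracil from DNA, had the widest drop at the end of the series. Over the low, middle and high groups it had 41.8, 93.9 and 17.0 CPM in the Listeria library and 43.3, 93.9 and 19.0 CPM in the naive library. These rest on few counts, 27 UMIs in the middle and 9 in the high group of the Listeria library, and 89 in the middle and 31 in the high group of the naive library. Outside the B lineage Ung had 22 UMIs in the middle and 2 in the high group of the Listeria library, and 18 in the middle and 2 in the high group of the naive library. Mcm6 had 233, 466 and 287 CPM over the 3 groups in the Listeria library and 187, 339 and 242 CPM in the naive library. Gins2, a GINS subunit, had 47.8, 118 and 66.0 CPM in the Listeria library and 51.1, 106 and 71.2 CPM in the naive library. Both genes were highest in the middle group in both libraries. Mcm10, Cdc45 and Gins1 of the helicase genes were highest in the top group of the Listeria library only. There Cdc45 had 41.7 CPM in the middle and 43.4 CPM in the high group. From the middle to the high group of the naive library, Cdc45 went from 54.9 to 31.3 CPM. Gins1 went from 41.2 to 35.6 CPM and Mcm10 from 38.0 to 37.4 CPM in the same naive groups.

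Rrm2, Tyms and Pclaf went on upward. Rrm2 had 95.5, 167 and 402 CPM over the 3 groups in the Listeria library and 43.3, 189 and 309 CPM in the naive library. Tyms had 77.6, 198 and 292 CPM in the Listeria library and 68.9, 193 and 315 CPM in the naive library. Pclaf had 149, 553 and 881 CPM in the Listeria library and 146, 574 and 863 CPM in the naive library. Past the limit in both libraries, 6 genes were lower and 6 higher in the highest group, against 9.41% lower and 11.1% higher of 7379 genes. When groups were set instead by the share of mitosis UMIs in unthinned cells, 11 genes were lower and 2 higher, against 6.15% lower and 9.65% higher of 7315 genes. The lower genes under both settings were Ung, Mcm2, Mcm3, Mcm6, Gins2 and Chaf1b, and the higher ones were Rrm2 and Pclaf.

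**Figure D3:**
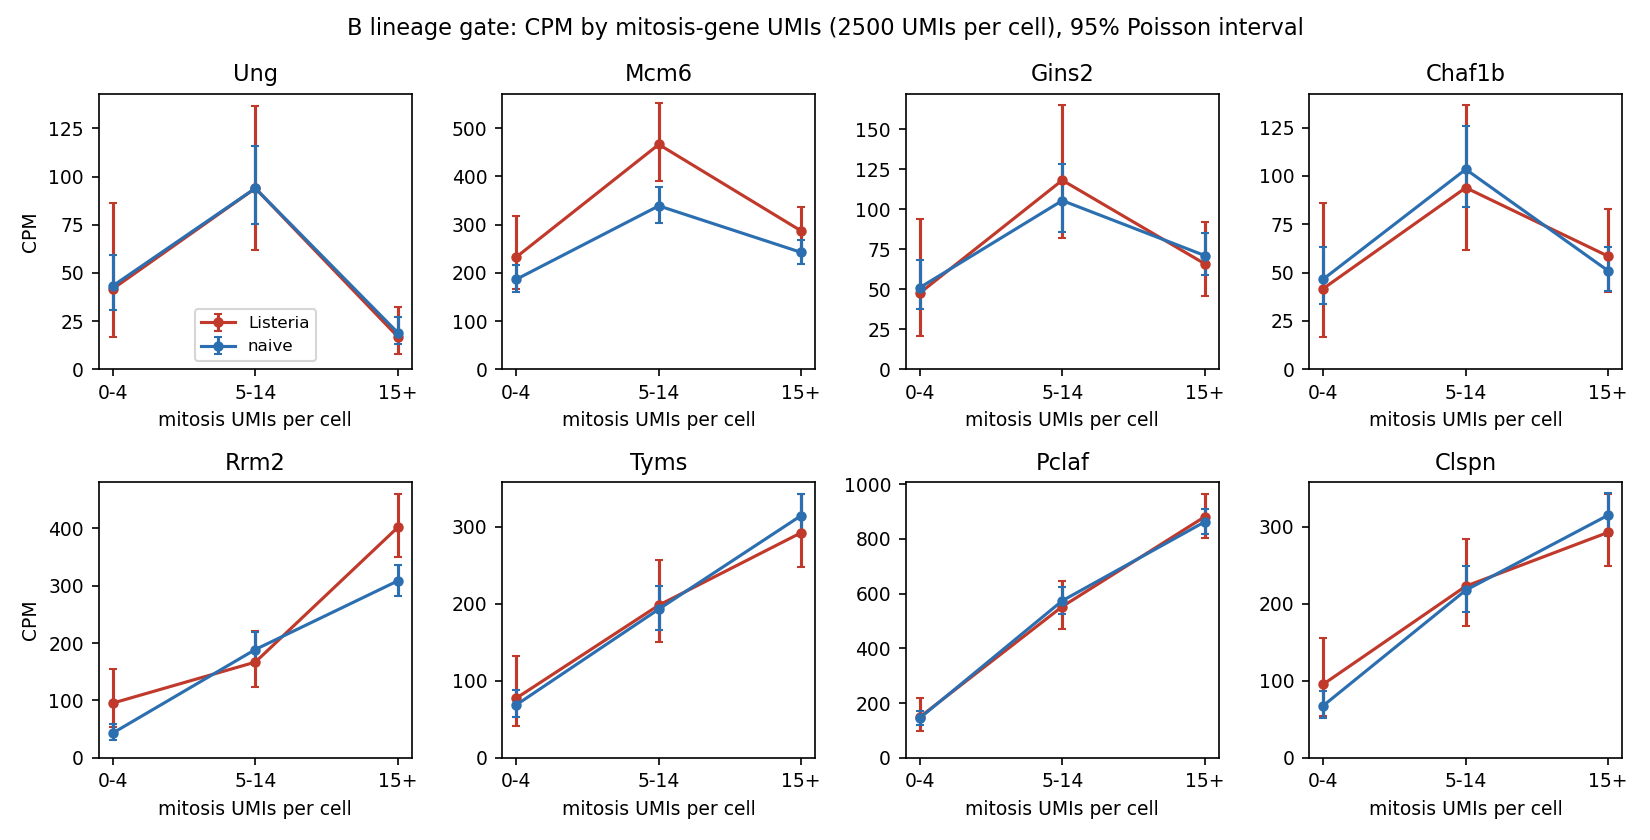
Each panel gives the CPM of 1 gene in B-lineage-like cells thinned to 2500 UMIs, against the number of mitosis UMIs in the cell, for the Listeria (red) and naive (blue) libraries, with 95% Poisson intervals. Ung, Mcm6, Gins2 and Chaf1b are highest at 5 to 14 mitosis UMIs, and Rrm2, Tyms, Pclaf and Clspn at 15 or more.

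Outside the B lineage, 39 genes in the Listeria and 35 in the naive library were higher in the middle than in the lowest group, against 19.9% of all genes in the Listeria and 23.7% in the naive library. Those shares cover genes at 10 CPM or more, but the counts of the set had no minimum. Under 10 CPM in both groups were Cdc45, Gins1 and Dscc1 in the Listeria library and Gins1, Dscc1 and Exo1 in the naive library. There, 26 genes (66.7%) were higher past the limit in the highest than in the middle group of the Listeria library and 32 (82.1%) in the naive library, against 33.7% of all genes in the Listeria and 36.3% in the naive library. Those groups mix cell types, and the part of that mixture in the difference was not tested.

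Member-high HSC-like cells differed from member-high B-lineage-like cells in which genes made up the set. Pclaf was 1.11% of the set's UMIs in HSC-like and 8.46% in B-lineage-like member-high cells of the Listeria library, and 1.97% in HSC-like and 8.86% in B-lineage-like cells of the naive library. Rrm2 was 0.586% in HSC-like and 3.59% in B-lineage-like cells of the Listeria library, and 0.329% in HSC-like and 3.09% in B-lineage-like cells of the naive library. Rfc2 went the other way, with 5.57% in HSC-like and 1.59% in B-lineage-like cells of the Listeria library, and 4.82% in HSC-like and 1.73% in B-lineage-like cells of the naive library. The counting interval of the log2 difference excluded 0 in both libraries for 8 genes. Rrm2, Pclaf, Uhrf1, Pcna and Cdc6 were lower and Rfc2, Pola1 and Rfc1 higher in HSC-like cells. These cells were picked by the set's own UMIs, and the shares of 1 sum depend on each other. The intervals cover neither.

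Both kinds of cells differed in mitosis genes too. Member-high HSC-like cells had 1667 CPM of mitosis genes in the Listeria and 3100 CPM in the naive library, against 8371 CPM in Listeria and 7611 CPM in naive member-high B-lineage-like cells. With only cells of at most 4 mitosis UMIs, 106 HSC-like and 26 B-lineage-like cells remained in the Listeria library, and 40 HSC-like and 157 B-lineage-like cells in the naive library. There, Pclaf and Uhrf1 were still lower and Rfc1 and Rfc2 still higher in HSC-like cells of both libraries, beyond the counting intervals. Pclaf was 0.580% in HSC-like and 4.78% in B-lineage-like cells of the Listeria library, and 0.990% in HSC-like and 4.54% in B-lineage-like cells of the naive library, from 7 UMIs in Listeria and 4 UMIs in naive HSC-like cells. That restriction was chosen after seeing the data, and its cells were picked by the set's own UMIs too.

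Within the HSC gate, member-high cells had lower counts of the markers that define the gate. HSC markers summed to 832 CPM in member-high and 1312 CPM in other HSC-like cells in the Listeria library, and to 850 CPM in member-high and 1387 CPM in other HSC-like cells of the naive library. Hlf, a transcription factor of HSCs, had 278 CPM in member-high and 418 CPM in other cells of the Listeria library, and 239 CPM in member-high and 381 CPM in other cells of the naive library. Mecom, another such factor, differed less, with 157 CPM in member-high and 197 CPM in other cells of the Listeria library, and 172 CPM in member-high and 183 CPM in other cells of the naive library. Procr, a surface marker of HSCs, had only 11 UMIs in member-high cells of the Listeria and 4 UMIs in those of the naive library. Member-high HSC-like cells had a median of 10089.5 UMIs in the Listeria and 11183.5 in the naive library, while the other HSC-like cells had 6610 in the Listeria and 6564.5 in the naive library. The gate asked for a minimum number of marker UMIs as well as a minimum rate. Cells with few UMIs thus needed a higher marker rate to enter it than deeper cells did. Doublets were not removed. The parts of this gate rule and of doublets in the lower marker levels were not tested.

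Over all cells the set was lower in the Listeria library, and within the HSC and B-lineage gates it was higher. The sum over all cells was 2455 CPM in the Listeria and 3164 CPM in the naive library, a log2 ratio of -0.37 (interval -0.38 to -0.35). In HSC-like cells the log2 ratio was 0.23 (0.20 to 0.26), in B-lineage-like cells 0.18 (0.16 to 0.20) and in the Cd34 and Emb gate 0.33 (0.28 to 0.38). B-lineage-like cells supplied 35.1% of the set's UMIs in the Listeria and 63.9% in the naive library, from 10.3% of all UMIs in the Listeria and 27.3% in the naive library. When the Listeria levels of each gate were weighted by the naive make-up of UMIs over gates, the set summed to 3545 CPM, a log2 ratio of 0.16 to the naive value. Whether the marrow or the preparation of the cells set that share cannot be told apart here. As a median over cells the log2 ratio was -0.10 in all cells. With edgeR's TMM scaling, tried on the sum after seeing the data, the ratio in HSC-like cells was 0.14. A planned subtraction of free RNA turned the ratio to -0.53 in the B-lineage gate and to -0.55 in the Cd34 and Emb gate, where its amount was set by haemoglobin counts of 1 or 2 cells. With such cells left out of the estimate, an alternative chosen after seeing the data, the ratio was 0.18 in the B-lineage gate and 0.34 in the Cd34 and Emb gate.

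Over all cells, 19 of the 39 genes (48.7%) were lower past the limit in the Listeria library, against 8.62% of the 8183 genes that reached 10 CPM. None was higher past the limit, against 15.1% of all genes. Pclaf had 101 CPM in the Listeria and 208 CPM in the naive library (log2 ratio -1.05, interval -1.10 to -0.99). Rrm2 had 42.3 CPM in the Listeria and 73.4 CPM in the naive library, Tyms 50.6 CPM in the Listeria and 88.4 CPM in the naive library, and Cdc6 27.3 CPM in the Listeria and 44.8 CPM in the naive library. Uhrf1 had 60.7 CPM in the Listeria and 95.1 CPM in the naive library. All 4 nucleotide supply genes and both licensing genes were among the 19, and neither Pola1 nor Prim1 was.

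The 5 genes that differed least over all cells were Rfc2, Mcm6, Fen1, Rfc5 and Chaf1a, with log2 ratios from -0.04 to 0.05. Rfc2 had 105 CPM in the Listeria and 101 CPM in the naive library, and Mcm6 had 125 CPM in the Listeria and 126 CPM in the naive library. The genes with the most UMIs were Atad2, a bromodomain protein, with 208 CPM in the Listeria and 269 CPM in the naive library, and Dut with 140 CPM in the Listeria and 198 CPM in the naive library. Slbp, which binds the stem-loop of histone mRNAs, had 132 CPM in the Listeria and 176 CPM in the naive library. Pcna had 129 CPM in the Listeria and 182 CPM in the naive library, and a separately counted Pcna pseudogene held 17 UMIs in the Listeria and 41 UMIs in the naive library. Mcm3 had 148 CPM in the Listeria and 169 CPM in the naive library.

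In HSC-like cells 5 of 7 helicase genes tested were higher and 1 lower in the Listeria library, and both fragment-joining genes tested, Fen1 and Lig1, were higher. With 31 of the 39 genes at 10 CPM or more, 14 (45.2%) were higher past the limit and 1 (3.23%) lower, against 20.8% higher and 5.67% lower among 8073 genes. The median log2 ratio was 0.29 for these 31 genes and 0.12 for all genes. The 10 helicase genes summed to 341 CPM in the Listeria and 250 CPM in the naive library (log2 ratio 0.45), and Mcm2, Mcm3, Mcm5, Mcm6 and Mcm7 each passed the limit. Mcm6 had 76.2 CPM in the Listeria and 45.9 CPM in the naive library (log2 ratio 0.73, interval 0.60 to 0.86). Mcm5 had 30.7 CPM in the Listeria and 20.4 CPM in the naive library (0.59, 0.38 to 0.79). Mcm4 had 39.8 CPM in the Listeria and 31.8 CPM in the naive library, a log2 ratio of 0.32 that just missed the limit.

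Fen1, the flap nuclease of fragment joining, had the highest ratio, with 21.3 CPM in the Listeria and 12.3 CPM in the naive library (log2 ratio 0.79, interval 0.54 to 1.05). Hells, a chromatin remodeller, had 21.5 CPM in the Listeria and 12.7 CPM in the naive library. Clspn, which couples fork stress to the checkpoint, had 15.6 CPM in the Listeria and 9.73 CPM in the naive library, and Rfc5 had 21.3 CPM in the Listeria and 13.3 CPM in the naive library. The clamp and loader genes as a whole summed to 318 CPM in the Listeria and 310 CPM in the naive library, a log2 ratio of 0.04. Gins2 was the 1 gene lower past the limit, with 17.5 CPM in the Listeria and 24.5 CPM in the naive library (log2 ratio -0.49, interval -0.71 to -0.26). Pcna had 77.5 CPM in the Listeria and 86.7 CPM in the naive library, Chaf1b 46.4 CPM in the Listeria and 47.0 CPM in the naive library, Slbp 81.1 CPM in the Listeria and 80.3 CPM in the naive library, and Tyms 16.0 CPM in the Listeria and 15.8 CPM in the naive library. The 8 genes under 10 CPM in both libraries were Pclaf, Cdc6, Cdc45, Rrm2, Dscc1, Exo1, Mcm10 and Gins1.

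The number of member-high HSC-like cells also differed between the libraries. Outside the member-high cells, HSC-like cells had 936 CPM of the set in the Listeria and 934 CPM in the naive library. Member-high HSC-like cells had 4945 CPM in the Listeria and 5067 CPM in the naive library. The member-high share was 6.43% in the Listeria and 3.17% in the naive library. Both states were cut by the set's own UMIs, which in part fixes their levels. Similar levels within a state thus cannot place the difference in the number of member-high cells, and they are a description. The median over HSC-like cells gave a log2 ratio of only 0.02, where the sum gave 0.23. Among member-high HSC-like cells, 23.2% in the Listeria and 44.4% in the naive library had 5 or more mitosis UMIs.

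**Figure D4:**
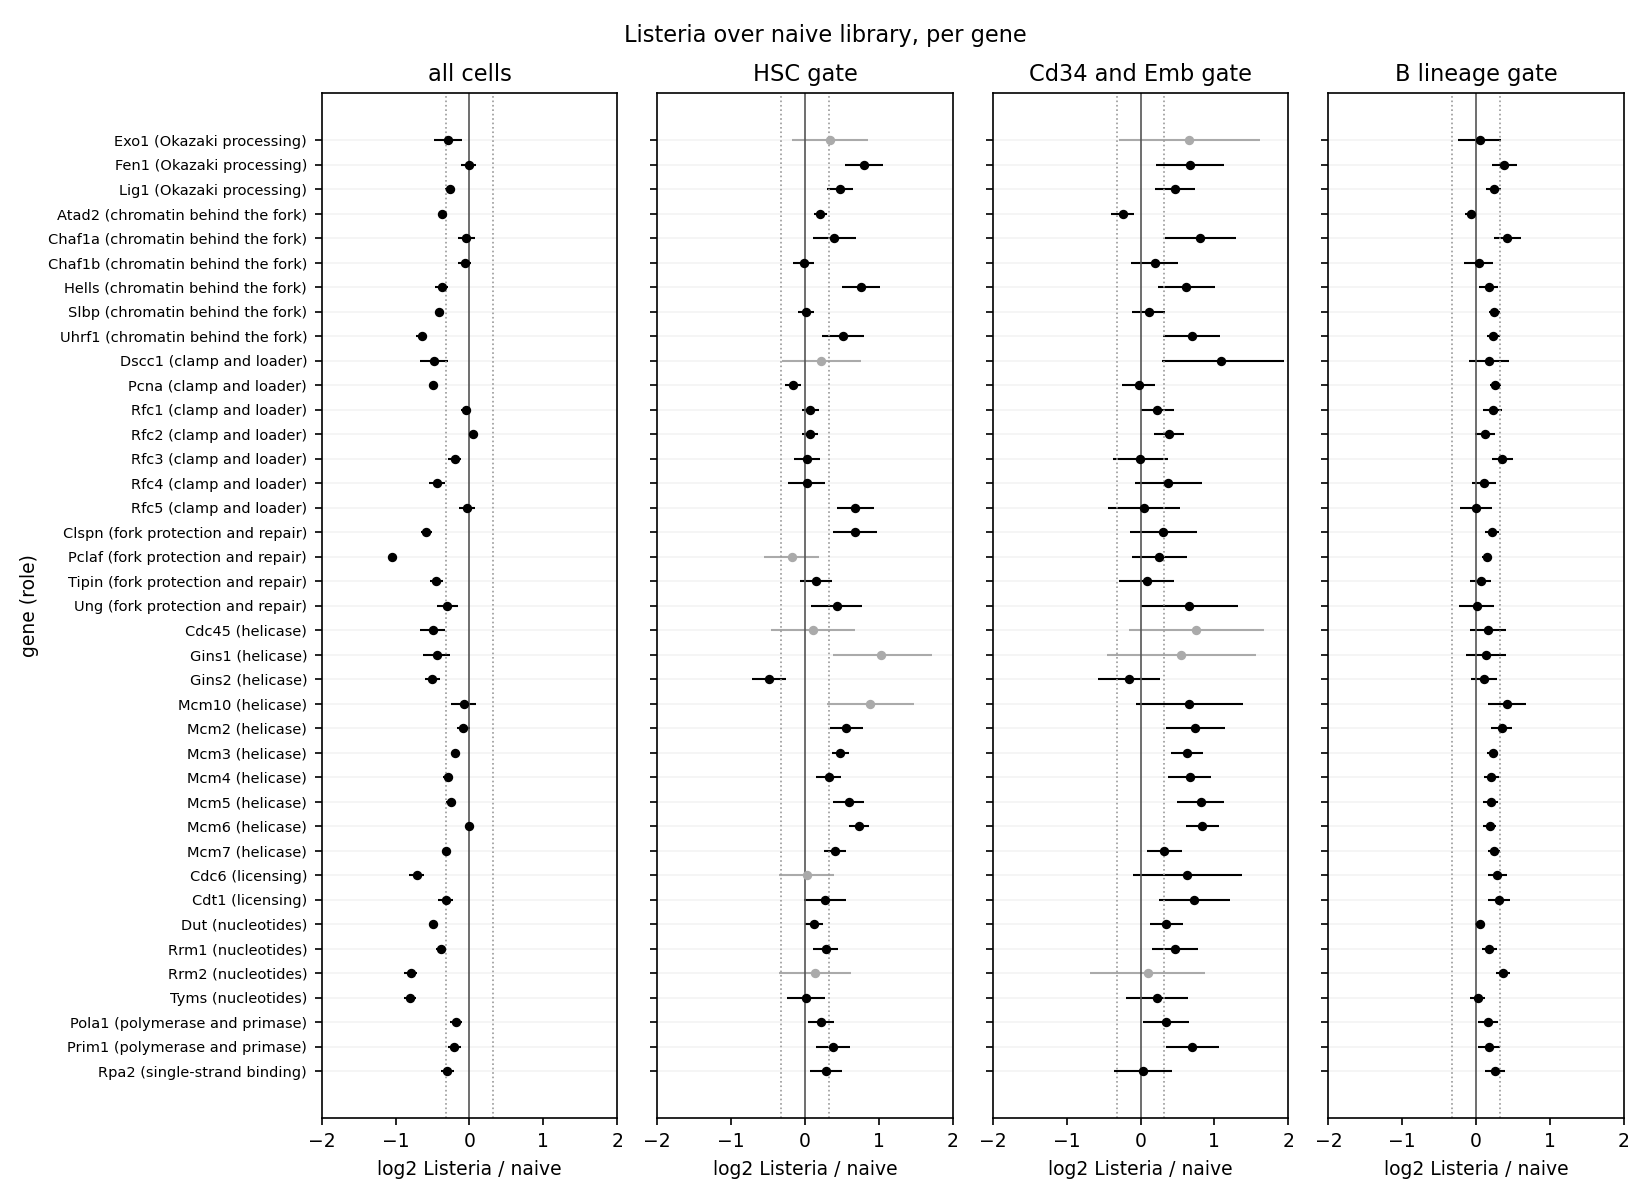
Points are log2 ratios per gene, Listeria over naive, with 95% counting intervals, in all cells and in 3 gates, grey where a gene had under 10 CPM in both libraries, and dotted lines mark the limit of 0.32 on the log2 scale. In all cells 19 genes lie left of the lower line, whereas in the HSC gate 14 and in the Cd34 and Emb gate 22 lie right of the upper line.

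The Cd34 and Emb gate showed a like pattern, with a median log2 ratio of 0.39 over the genes tested. The ratio of the sum, 0.33, was 0.03 as a median over cells and 0.21 with looser lineage gates, chosen after seeing the data. Of 35 genes tested, 22 (62.9%) were higher past the limit in the Listeria library and 0 lower, against 20.3% higher and 11.7% lower among all genes. Mcm6 had 117 CPM in the Listeria and 65.4 CPM in the naive library (log2 ratio 0.84, interval 0.61 to 1.06). Mcm5 had 60.3 CPM in the Listeria and 34.3 CPM in the naive library, and Chaf1a 26.4 CPM in the Listeria and 15.1 CPM in the naive library. Atad2 went the other way, with 168 CPM in the Listeria and 198 CPM in the naive library. Dscc1, a subunit of an alternative clamp loader, had the highest ratio but only 38 UMIs in the Listeria and 21 UMIs in the naive library.

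In B-lineage-like cells the ratios were smaller and more even. Of the 39 genes 6 (15.4%) were higher past the limit in the Listeria library and 0 lower, against 7.93% higher and 7.09% lower among all genes. These 6 were Chaf1a, Mcm10, Fen1, Rrm2, Rfc3 and Mcm2. Chaf1a had 85.4 CPM in the Listeria and 63.7 CPM in the naive library (log2 ratio 0.42, interval 0.24 to 0.61), and Rrm2 292 CPM in the Listeria and 226 CPM in the naive library (0.37, 0.27 to 0.46). Atad2 had the lowest ratio, with 527 CPM in the Listeria and 555 CPM in the naive library. Rfc5 had 56.2 CPM in the Listeria and 56.0 CPM in the naive library.

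The other gates had fewer cells. In erythroid-like cells 3 of 39 genes were higher and 20 lower in the Listeria library, against 25.4% higher and 28.8% lower among all genes, from 54 Listeria and 36 naive cells. In myeloid-progenitor-like cells, 16 of 36 genes were higher past the limit and 4 lower in the Listeria library, against 22.3% higher and 15.5% lower among all genes. In megakaryocyte-lineage-like cells 7 of 39 were higher and 2 lower, against 19.9% and 18.3%, so the set stood no higher than its background there. In the Dntt and Flt3 gate 6 of 33 were higher and 9 lower, against 24.3% and 15.6%. In T/NK-like cells, from 134 Listeria and 240 naive cells, 1 of 32 was higher and 12 lower, against 22.5% and 19.5%. Among cells that met no gate 17 of 36 were higher and 2 lower, against 24.9% and 16.7%.

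Other genes of the replication pathway outside the 39 were mostly above 0 in log2 ratio in HSC-like cells, as all genes were. Of 50 further fork, origin and nucleotide genes, 35 were tested there, and 12 were higher past the limit and 0 lower in the Listeria library, with a median log2 ratio of 0.26. Over all genes 20.8% were higher and 5.67% lower there, with a median of 0.12. Pola2, a subunit of polymerase alpha, had 11.3 CPM in the Listeria and 7.16 CPM in the naive library. Pold4, the small subunit of polymerase delta, was lowest, with 81.0 CPM in the Listeria and 96.1 CPM in the naive library. Over all cells 1 of 44 was higher and 9 lower, against 15.1% and 8.62% of all genes. There the histone chaperone gene Asf1b had 17.6 CPM in the Listeria and 31.7 CPM in the naive library, while Orc4, an origin recognition subunit, had 36.6 CPM in the Listeria and 27.9 CPM in the naive library.

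Of 19 mitosis genes tested in HSC-like cells 5 were higher and 1 lower, and their median log2 ratio of 0.09 lay below that of all genes, 0.12. The difference between the lists was not tested. Over all cells 32 of 40 mitosis genes were lower and 0 higher, against 8.62% lower and 15.1% higher among all genes. Of the S phase repair genes, 2 of 5 tested were higher and 0 lower in HSC-like cells. One of them was Rad18, a ubiquitin ligase for Pcna, with 23.2 CPM in the Listeria and 12.9 CPM in the naive library. Among 17 regulators of the G1 to S step tested in HSC-like cells, 4 were higher and 2 lower. For these lists too the shares over all genes in HSC-like cells were 20.8% higher and 5.67% lower, and the count of G1 to S regulators that were higher lay near that share. Cdkn1a, the p21 inhibitor of cyclin-dependent kinases, had 262 CPM in the Listeria and 539 CPM in the naive library (log2 ratio -1.04, interval -1.09 to -0.99). Cdkn1c, the p57 inhibitor, had 39.8 CPM in the Listeria and 51.9 CPM in the naive library. Cdk6 had 306 CPM in the Listeria and 229 CPM in the naive library, and E2f4 35.1 CPM in the Listeria and 24.5 CPM in the naive library.

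Genes outside the set were ranked by Spearman correlation of their thinned UMIs with the sum of the set across cells. The 18 genes in the top 20 of both libraries included Stmn1, Mki67, Top2a, Ptma, H2afz, Hmgb2 and the histone genes Hist1h1b and Hist1h3c. Mki67, a proliferation marker, had a correlation of 0.41 in the Listeria and 0.57 in the naive library. Stmn1, a tubulin-binding protein, had 0.46 in the Listeria and 0.51 in the naive library. Vpreb1, Vpreb3, Ebf1, Cd79a and Igll1, which are B-lineage genes, were also among the 18. Cells of 1 library share its depth and cell types, and the ranks describe that mixture.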

How the data were processed

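The authors deposited unfiltered UMI counts of 31053 genes, with no normalization. The submitters' processing notes name Cell Ranger 3.0.2 and the build mm10. The labels' protocols name a 3′ v2 kit, though 6794880 barcodes are listed. Total depth was 43895966 UMIs in the Listeria and 64619150 in the naive library, of which kept cells held 89.4% in Listeria and 78.6% in naive.

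The members and gene lists were chosen with earlier results of these data known, and the gate rule was completed after seeing the data. A lineage gate needed at least 5 UMIs of at least 2 markers and 10 per 10000 UMIs, and the HSC, Cd34 and Emb, and Dntt and Flt3 gates at least 3 UMIs of 2 markers and 5 per 10000. A cell that met both the HSC gate and the Cd34 and Emb gate went to the HSC gate. This held unless its Dntt and Flt3 gate markers had more UMIs than its HSC markers. No doublet caller was run. Cells in more than 1 lineage gate were kept out of the single gates but not out of values over all cells. Other doublets remain. Sums have exact Poisson intervals, shares Clopper-Pearson intervals and log2 ratios exact intervals from the binomial split, all at 95%. They were computed in Python 3.11.15 and scipy and cover only the counting of UMIs or of cells within a library. Genes that reached 10 CPM in one or both groups were compared, and a gene beyond a log2 ratio of 0.32 was counted. In the groups of cells split by mitosis UMIs, the 39 genes were counted without that minimum. With 1 library a group no test was possible. The intervals and calls were tested on simulated data with planted folds. Scalings were also taken from edgeR and DESeq2. Named members were the 5 highest and 5 lowest ratios in a comparison and the 5 most abundant, with up to 4 genes of each other list. Of the 39 members 12 overlap another counted gene, 1 on the same strand (Cdt1), so shared reads are possible. Sequences are from RefSeq, and 30934 of 31053 identifiers matched GENCODE vM21. Some genes of the other lists are not reported here by name.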

Additional observations from a re-analysis of the deposited data

Results flagged for a closer look

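The log2 ratio of the summed replication genes, Listeria over naive, had opposite directions in different gates with at least 50 cells in each library, with counting intervals that exclude 0. It was positive in HSC-like cells (0.23), the Cd34 and Emb gate (0.33), B-lineage-like cells (0.18), megakaryocyte-lineage-like cells (0.089) and myeloid-progenitor-like cells (0.23). It was negative in T/NK-like cells (-0.33) and neutrophil-like cells (-0.45). The difference between gates was not tested, since each group is 1 library. The neutrophil-like value rests on 167 UMIs in 60 Listeria cells and 259 UMIs in 62 naive cells, and in T/NK-like cells 1 cell held 10.2% of the set's UMIs in the Listeria and 9.31% in the naive library.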

How the results depend on the processing

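The log2 ratio of the summed set was -0.37 in all cells, 0.23 in the HSC gate, 0.18 in the B-lineage gate and 0.33 in the Cd34 and Emb gate. In all cells it was -0.40 with at least 5000 UMIs a cell, -0.44 with at most 5% mitochondrial UMIs, -0.49 with free RNA subtracted, -0.45 without the 5% of cells with the most UMIs of the set, -0.35 as a mean over cells and -0.098 as a median. In the HSC gate it was 0.18 without the 5% of cells with the most UMIs, 0.16 (0.155) without those with the most UMIs of the set, 0.163 as a mean and 0.024 as a median. In the B-lineage gate it was 0.16 with at most 5% mitochondrial UMIs, 0.201 with looser lineage gates, 0.28 as a median and 0.200 without Atad2, and it reversed to -0.53 with free RNA subtracted. In the Cd34 and Emb gate it was 0.21 with looser lineage gates, 0.24 as a mean, 0.028 as a median and 0.40 without Atad2, and it reversed to -0.55 with free RNA subtracted. In those 2 gates, 2 naive cells held 98.8% and 1 Listeria cell 98.6% of the haemoglobin UMIs behind that subtraction. The estimate for all cells left out erythroid-like cells and cells of more than 1 lineage. There, 4 naive cells held 95.7% and 6 Listeria cells 88.9% of the haemoglobin UMIs. Free RNA was put at 28.1% of naive and 8.03% of Listeria UMIs, against 1.22% and 0.893% without such cells. The value of -0.49 thus rests on few cells too. Leaving out the cells richest in the set, the looser gates and free RNA set from other cells were chosen after seeing the data.

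Counts of genes moved with the limits. With 50 CPM as minimum, 12 genes were lower in all cells, 3 higher in the HSC gate and 10 higher in the Cd34 and Emb gate, and with a 1.5-fold limit 6 were lower in all cells, 6 higher in the HSC gate and 0 higher in the B-lineage gate. With free RNA subtracted, 10 were higher in the Cd34 and Emb gate and 0 in the B-lineage gate. The share over all genes was not computed at these settings, so these counts cannot be set against a background. With groups set by the unthinned share of mitosis UMIs, 11 genes were lower and 2 higher in the top group. The cause of these moves was not tested.

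The share of HSC-like cells at 5 or more UMIs of the set, 16.3% in Listeria and 12.8% in naive, was 68.7% in Listeria and 67.1% in naive when unthinned, 44.7% in Listeria and 42.2% in naive at 3 or more, 6.43% in Listeria and 3.17% in naive at 8 or more, and 37.2% in Listeria and 33.5% in naive when thinned to 4000 UMIs. For B-lineage-like cells it was 87.6% in Listeria and 84.3% in naive. Unthinned it was 92.1% in Listeria and 93.2% in naive, and at 3 or more 92.6% in Listeria and 92.2% in naive. At 8 or more it was 81.0% in Listeria and 76.3% in naive, and at 4000 UMIs 95.6% in Listeria and 94.1% in naive. In both gates the values at 4000 UMIs leave out cells with fewer UMIs, and 5 UMIs of the set are a lower rate there. With edgeR's TMM and then DESeq2's scaling, applied to the sum after seeing the data, the ratio was -0.415 and -0.414 in all cells, 0.144 and 0.162 in the HSC gate, 0.147 and 0.153 in the B-lineage gate, and 0.279 and 0.269 in the Cd34 and Emb gate. No paired analysis was possible because each group is 1 library, and for the same reason no library could be left out. No gene of the set was in another list, so leaving out shared genes gave no value.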

Other observations

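Barcodes with 1 to 50 UMIs, which hold free RNA, had 2206 CPM of the replication genes in the Listeria and 2419 CPM in the naive library, above the level of HSC-like cells in both. Set from cells with under 10 haemoglobin UMIs, free RNA was 1.18% of the UMIs of HSC-like cells in the Listeria and 1.58% in the naive library. Cells positive for more than 1 lineage had 3689 CPM of the set in the Listeria and 4029 CPM in the naive library, with medians of 13285 UMIs in the Listeria and 11944 UMIs in the naive library. Cells that met no gate had 2100 CPM of the set in the Listeria and 1797 CPM in the naive library, and 13.6% of them in the Listeria library were member-high.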
